A study of Mus musculus with 12 samples.

Results

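Neuronal microtubule and stathmin genes were followed through photo-isolation chemistry (PIC) libraries of the adult mouse hippocampus. The members were the rows of the deposited UMI count table whose gene symbol was Map2, Map1b, Mapt, Tuba1a, Tuba1b, Tubb2a, Tubb3, Stmn1, Stmn2 or Stmn3, which gave 10 of 32546 genes, all of them with a row of their own. They comprise 3 structural microtubule-associated proteins (MAPs), 4 tubulins and 3 stathmins. In PIC, a caged primer for reverse transcription is released by light, so that only cDNA from an irradiated area is amplified, here by CEL-seq2, which primes at the 3′ end of polyadenylated RNA. CA1, CA3 and the dentate gyrus (DG) of male ICR mice aged 8 weeks were irradiated in sections of 4 histological conditions. Sections of unfixed fresh-frozen tissue were treated for 5 min with 0.1 N HCl (HCl fresh-frozen). Other such sections were kept in TE buffer at 70 °C for 1 h to permeabilize them (TE fresh-frozen). Frozen sections (fixed frozen) and paraffin sections (paraffin) of tissue fixed with 4% PFA were permeabilized with the same TE treatment. The paper's protocol also post-fixes all sections briefly with PFA on the slide. Its HCl treatment further includes Triton X-100 and heated PBS. Each of the 12 combinations of region and condition was 1 library that pooled 4 barcoded biological replicates. Region and library therefore cannot be told apart within a condition, and which animal gave which replicate is not given in the sources used here. The region called CA3 in the sample titles is called CA2 in the series description, and the titles were followed.

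Microtubules are hollow polymers of α- and β-tubulin dimers that give axons and dendrites their shape and serve as tracks for kinesin and dynein motors. Structural MAPs bind along the polymer and stabilize it, with Map2 known from the soma and dendrites and tau, the product of Mapt, from the axon. Stathmins bind free tubulin dimers and favour disassembly, and several stathmins and tubulins are known for high expression in young neurons that extend neurites.

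The 48 replicates held 35932 to 1111804 UMIs, with medians of 731106.5 in HCl fresh-frozen, 629964.5 in TE fresh-frozen, 122520.5 in fixed frozen and 67528 in paraffin sections. Replicate 4 had the fewest UMIs of its library in 12 of 12 libraries. Levels are given in CPM, UMI counts scaled by the total of the replicate, which are not divided by transcript length and are not compared between genes. Summed markers of CA1 (6 genes), CA3 (6 genes) and DG (8 genes) had their highest median in the region they name in all 4 conditions, although the CA3 marker Iyd had 0 UMIs in the paraffin CA3 library. The CA1 list includes Dkk3 and Ociad2, which the paper names as markers of both CA1 and CA3. The sum of 6 oligodendrocyte markers was higher in CA1 than in DG in every condition by median, with 10293 against 3585 CPM in HCl fresh-frozen, 6811 against 2849 in TE fresh-frozen, 8272 against 2181 in fixed frozen and 15164 against 10135 in paraffin sections. In such tissue fewer cells of a type and less RNA per cell cannot be told apart.

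The tubulins need a remark on sequence before their values. Tuba1a and Tuba1b both lie on the minus strand of chromosome 15 (GRCm38, GENCODE M21), at chr15:98949837-98953703 and chr15:98931425-98934565. Their coding sequences were identical at 1333 of 1356 bases (98.3%), with a longest identical run of 281 bases. Among the 451 windows of 50 bases within the last 500 bases of each transcript, 367 of Tuba1b (81.4%) and 254 of Tuba1a (56.3%) also occurred in another annotated gene, among them each other, Tuba1c and pseudogene models. Tubb2a (chr13:34074274-34078007, minus strand) shared 191 windows (42.4%) with Tubb2b, Tubb4a or Tubb2a-ps2, Stmn1 shared 11 (2.44%), and the other 6 members shared none. Reads that map to several genes are left unassigned by the counter's default, so the levels of Tuba1a, Tuba1b and Tubb2a are uncertain to that extent. Tubb3 (chr8:123411424-123422015, plus strand) lies within the span of the gene model Gm20388.

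The number of UMIs sets the precision of each level. Map1b reached 2760 UMIs in 1 replicate, or 67.4% of the 4096 different UMIs that 6 bases allow. Correction for UMIs drawn more than once raised that count to 4589. The largest counts of the other members ran from 22 UMIs for Stmn1 to 1395 for Map2. Stmn1 was at the limit of detection, with 228 UMIs over all 48 replicates and none in 3 of them, and Tuba1b and Tubb3 had 1 replicate each without a UMI.

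**Figure D1:**
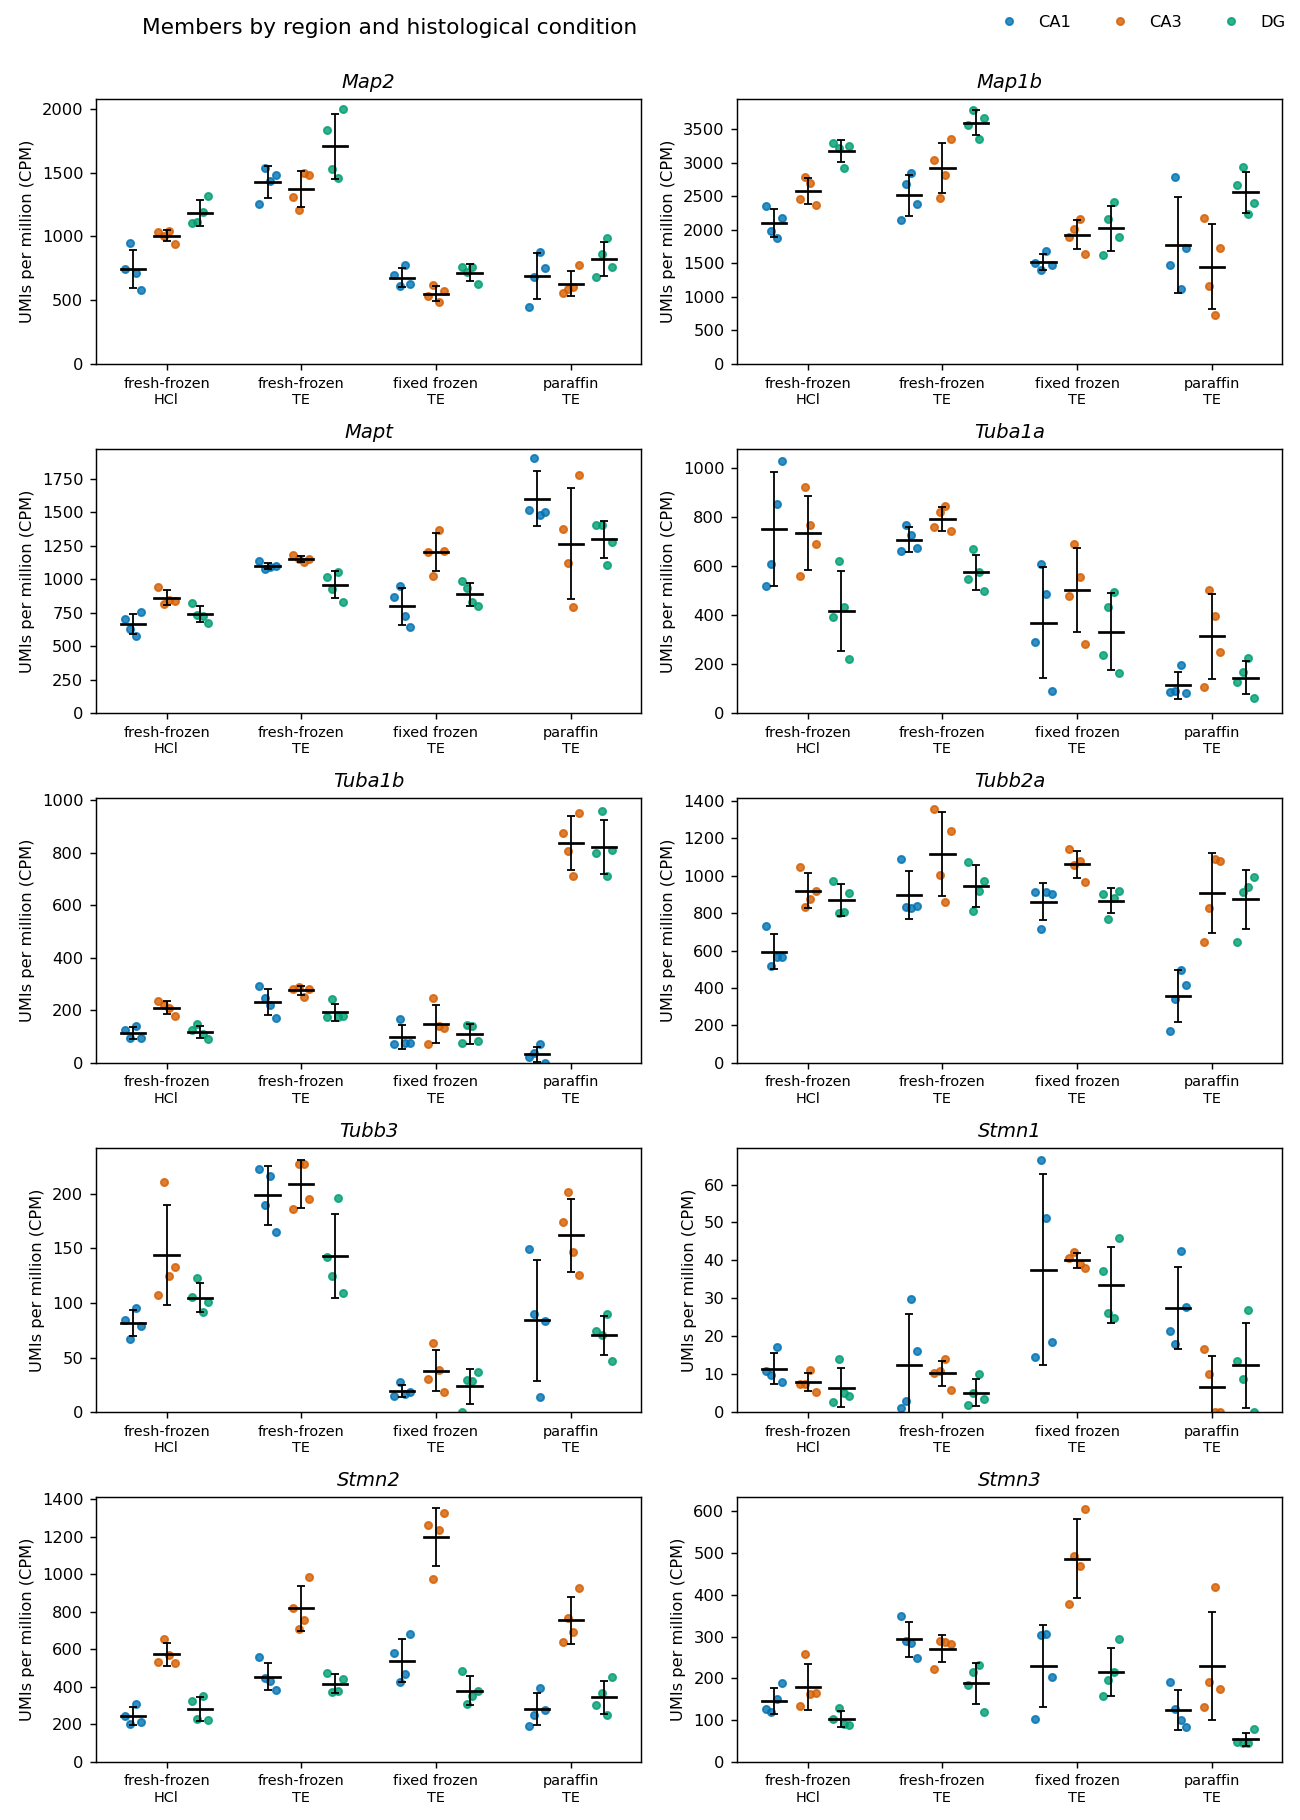
Level of each of the 10 genes in CPM (y axis, from 0, own scale per gene) by region and histological condition. Points are the 4 replicates of a group, horizontal black lines their mean and vertical lines 1 SD to each side. Stmn2 was highest in CA3 in every condition, and Tuba1b reached 713 to 960 CPM in the paraffin DG replicates but 0 to 70.6 CPM in those of paraffin CA1.

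Regions were first compared within each condition, which asks whether the levels of these genes differ between the neuronal fields. Calls rest on edgeR's quasi-likelihood test and an adjusted p (Benjamini-Hochberg, all genes tested) under 0.05. Between CA3 and DG, 4, 5, 3 and 3 of 10 members were called in HCl fresh-frozen, TE fresh-frozen, fixed frozen and paraffin sections, all of them higher in CA3. Of all genes tested, 8.99, 7.91, 9.27 and 3.21% were called in the same comparisons, and 4.46, 4.35, 4.29 and 1.93% were called higher in CA3. Between CA1 and CA3, 5, 1 and 3 of 10 members and, in paraffin sections, 4 of 9 tested were called, all lower in CA1, beside 9.13, 4.4, 7.2 and 2.36% of all genes called and 5.06, 2.41, 3.86 and 1.72% called lower in CA1. Between CA1 and DG, 4, 2, 1 and 2 of 10 members were called, beside 17.0, 10.1, 8.14 and 3.29% of all genes, with 2 of these 9 calls higher in CA1 and 7 lower. The members' median log2 fold change of CA3 over DG was 0.36, 0.53, 0.42 and 0.06 in the 4 conditions, beside medians of all genes between -0.09 and 0.03. Comparisons that share a region share its replicates.

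Map2 (chr1:66175273-66442583, plus strand) and Map1b (chr13:99421446-99516540, minus strand), 2 MAPs known from dendrites and from growing neurites respectively, had their highest mean in DG in 4 of 4 conditions. The share of all genes with such an order of means was not counted. All DG replicates were above those of both other regions in 1 condition for each gene, HCl fresh-frozen sections. In the edgeR fits used for calls, Map2 was called between regions in that condition only. In HCl fresh-frozen sections the Map2 level was 741, 946, 714 and 582 CPM in CA1, 1032, 1003, 1046 and 942 CPM in CA3, and 1101, 1112, 1190 and 1319 CPM in DG. All DG replicates thus lay above all others, and CA1 and CA3 overlapped only through 1 replicate of each. The Map2 difference was -0.64 (log2 of CA1 over DG, SE 0.17, adjusted p 0.00559) and -0.47 (log2 of CA1 over CA3, SE 0.15, adjusted p 0.0414). The latter call was lost without any 1 of 7 of the 8 replicates, CA1 replicate 2 being the exception, with adjusted p up to 0.159, and also with DESeq2 size factors (0.0536), without a filter (0.0524) and with TMM factors from well-counted genes (0.0727).

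Map1b in HCl fresh-frozen sections measured 2363, 1990, 1883 and 2185 CPM in CA1, 2459, 2793, 2702 and 2373 CPM in CA3, and 3290, 3226, 2927 and 3245 CPM in DG. In these CPM, not corrected for UMIs drawn more than once, the 3 regions were ordered CA1, CA3, DG without overlap. The CA3 replicates held 1735 to 2608 Map1b UMIs and the DG replicates 775 to 2306. Whether they overlap after correction was not tested. Map1b was called lower in CA1 than in DG in 3 conditions, by -0.59 (log2, SE 0.17) in HCl fresh-frozen, -0.49 (SE 0.13) in TE fresh-frozen and -0.48 (SE 0.16) in fixed frozen sections. The adjusted p were 0.00974, 0.00904 and 0.0377. None of the 3 calls stood without every single replicate. The call was lost in HCl fresh-frozen sections without CA1 replicate 3 (adjusted p 0.0643), in TE fresh-frozen sections without CA1 replicate 1 (0.0528), and in fixed frozen sections without any 1 of 6 replicates, which were all but CA1 replicate 3 and DG replicate 1 (0.0854 to 0.36). In CA3 the HCl fresh-frozen level was also lower than in DG when replicate numbers were blocked (log2 of CA3 over DG -0.27, adjusted p 0.0225). That call was made on uncorrected counts and was absent without the block. Map1b of CA1 over CA3 in HCl fresh-frozen sections was not called (log2 -0.345, edgeR adjusted p 0.123). It was called after correction for UMI saturation (-0.60, adjusted p 0.0131) and without CA1 replicate 4 (-0.371, adjusted p 0.0423). In paraffin sections Map1b ranged from 732 to 2184 CPM in CA3 and from 2237 to 2934 CPM in DG, and no difference between regions was called. The log2 difference of CA3 over DG was -0.76 (adjusted p 0.083). It was called with TMM factors from well-counted genes (-0.84, adjusted p 0.0421) and without CA3 replicate 1 (-1.15, adjusted p 0.00341). Blocking replicate numbers also called it (-0.87, adjusted p 0.00203). For CA1 over DG the log2 difference was -0.57 (adjusted p 0.212), and -0.63 with the block (adjusted p 0.00228). The paraffin pairs did not meet the rule for blocking given below.

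Mapt (chr11:104231390-104332090, plus strand), the gene of tau, had its highest mean in CA3 in 3 conditions and in CA1 in paraffin sections. In fixed frozen sections it measured 869, 951, 725 and 646 CPM in CA1, 1202, 1023, 1370 and 1212 CPM in CA3, and 984, 938, 833 and 798 CPM in DG. All CA3 replicates were above those of both other regions, by -0.59 on the log2 scale for CA1 over CA3 (SE 0.17, adjusted p 0.0131). That call was lost without CA1 replicate 3 or CA3 replicate 3 (adjusted p 0.0711 and 0.0736). Mapt of CA3 over DG in fixed frozen sections was not called in the edgeR fit used for calls (log2 0.43, adjusted p 0.0624). DESeq2 called it (log2 0.46, adjusted p 0.0436). So did edgeR with DESeq2 size factors (0.0417), after correction for UMI saturation (0.04997) and without CA3 replicate 2 (0.0431). Mapt of CA1 over CA3 in HCl fresh-frozen sections was likewise not called in the edgeR fit used for calls (log2 -0.44, adjusted p 0.0517). It was called with DESeq2 (adjusted p 0.0397), after correction for UMI saturation (0.0375) and without CA1 replicate 4 (0.0135). With replicate numbers blocked, Mapt was also higher in CA3 than in DG in TE fresh-frozen sections (log2 0.32, adjusted p 0.0210). Its TE fresh-frozen means were 1101 ± 23.9 CPM in CA1, 1153 ± 20.8 CPM in CA3 and 959 ± 99.6 CPM in DG (SD, n = 4 each).

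Among the tubulins, Tuba1b, Tubb2a and Tubb3 had their highest mean in CA3 in 4 of 4 conditions, and the α-tubulin gene Tuba1a in 3. The share of all genes with such an order of means was not counted. All CA3 replicates were above those of both other regions in 1 condition each for Tuba1b and Tubb2a. For Tubb3 and Tuba1a this held in 0 conditions. In TE fresh-frozen sections the Tuba1a level was 708 ± 49.7 CPM in CA1, 792 ± 49.3 CPM in CA3 and 574 ± 72.3 CPM in DG. Tuba1a was called higher in CA3 than in DG in 3 conditions, by 0.81 (log2, SE 0.20) in HCl fresh-frozen, 0.51 (SE 0.14) in TE fresh-frozen and 0.58 (SE 0.19) in fixed frozen sections, with adjusted p of 0.00905, 0.0175 and 0.0252. The TE fresh-frozen call was lost without CA3 replicate 3 or DG replicate 1, 3 or 4 (adjusted p 0.0511 to 0.0635), and the fixed frozen call without CA3 replicate 2 or 3 or DG replicate 1 or 4 (0.119 to 0.321), with DESeq2 (0.153) and without a filter (0.0705). Tuba1a was also higher in CA1 than in DG in HCl fresh-frozen sections (log2 0.79, SE 0.21, adjusted p 0.00691). The same direction was called in TE fresh-frozen sections only with replicate numbers blocked (log2 0.33, adjusted p 0.00909). In paraffin sections Tuba1a was lower in CA1 than in CA3 (log2 -1.32, SE 0.39, adjusted p 0.037), a call lost without CA1 replicate 1, 2 or 4 or CA3 replicate 2 or 3 (0.0828 to 0.502) and with DESeq2 (0.163). Tuba1a of CA3 over DG was not called there (log2 1.01, adjusted p 0.0677). It was called without CA3 replicate 1 (1.31, adjusted p 0.00231) and with replicate numbers blocked (1.00, adjusted p 0.0221).

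Tuba1b, the other α-tubulin gene, had the largest difference of all members. Paraffin CA1 held 1, 2, 5 and 0 UMIs, or 21.3, 36.0, 70.6 and 0 CPM, where a count of 0 allows up to 83.5 CPM at the depth of that replicate (3 UMIs, counting error only). Paraffin CA3 held 106, 80, 34 and 38 UMIs, or 877, 806, 711 and 952 CPM. Paraffin DG held 118, 108, 159 and 52 UMIs, or 800, 960, 713 and 809 CPM. Every CA1 replicate was therefore far below every replicate of the other 2 regions, which overlapped with each other. CA1 over DG gave -4.43 on the log2 scale (SE 0.39, adjusted p 4.4e-27, 21.5-fold lower), and CA1 over CA3 gave -4.39 (SE 0.43, adjusted p 3.45e-21). By fold change, Tuba1b was the 17th lowest of 7495 genes for CA1 over CA3 and the 53rd lowest of 8969 for CA1 over DG. Its nearly identical counterpart Tuba1a measured 114 ± 55.8 CPM in the same CA1 replicates, 315 ± 173 CPM in CA3 and 146 ± 68.2 CPM in DG. The part of shared reads in the Tuba1b result was not tested.

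Differences of Tuba1b between regions were smaller in fresh-frozen sections, and none was called in fixed frozen sections. In TE fresh-frozen sections it measured 292, 246, 220 and 173 CPM in CA1, 282, 290, 252 and 281 CPM in CA3, and 175, 242, 173 and 180 CPM in DG. All CA3 values lay above all DG values, and CA1 overlapped with both. CA3 exceeded DG by 0.57 (log2, SE 0.16, adjusted p 0.0210) in TE fresh-frozen and by 0.83 (SE 0.17, adjusted p 0.00176) in HCl fresh-frozen sections, and in the latter CA1 was lower than CA3 by -0.89 (SE 0.18, adjusted p 0.000734). The TE fresh-frozen call was lost without CA3 replicate 2 or 4 or DG replicate 1, 3 or 4 (adjusted p 0.0532 to 0.0945).

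Tubb2a, a neuronal β-tubulin gene, showed the same region as low in paraffin sections. It measured 171, 342, 494 and 417 CPM in CA1, 645, 826, 1088 and 1078 CPM in CA3, and 644, 916, 941 and 996 CPM in DG, so that CA1 was below both without overlap. The log2 fold change was -1.30 for CA1 over DG (SE 0.26, adjusted p 0.000114) and -1.28 for CA1 over CA3 (SE 0.30, adjusted p 0.00292). In HCl fresh-frozen sections it was -0.67 for CA1 over CA3 (SE 0.15, adjusted p 0.00266) and -0.54 for CA1 over DG (SE 0.17, adjusted p 0.0202), the latter lost without CA1 replicate 2 or 3 or DG replicate 1 (0.0637 to 0.0812). Tubb3, the neuron-specific β-tubulin gene, was called higher in CA3 than in DG in TE fresh-frozen sections (log2 0.58, SE 0.17, adjusted p 0.033) and in paraffin sections (log2 1.22, SE 0.37, adjusted p 0.0422). In HCl fresh-frozen sections it was lower in CA1 than in CA3 (log2 -0.86, SE 0.21, adjusted p 0.00675). Each of these 3 Tubb3 calls was lost without single replicates, namely any but CA3 replicate 1 and DG replicate 3 in TE fresh-frozen sections (adjusted p 0.0502 to 0.149), any but CA3 replicate 4 in paraffin sections (0.0514 to 0.196) and CA3 replicate 2 in HCl fresh-frozen sections (0.0618). The paraffin call was also lost with DESeq2 (0.131), without a filter (0.137) and with TMM factors from well-counted genes (0.0578). Blocking replicate numbers added a call for Tubb3 of CA1 over DG in TE fresh-frozen sections (log2 0.49, adjusted p 0.00228) and of CA3 over DG in HCl fresh-frozen sections (log2 0.50, adjusted p 0.00573).

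Stmn2 (chr3:8509360-8561606, plus strand), a stathmin attached to membranes of growing neurites, had the most regular regional pattern. In HCl fresh-frozen sections it measured 245, 202, 309 and 212 CPM in CA1, 534, 658, 570 and 529 CPM in CA3, and 324, 228, 352 and 222 CPM in DG. In TE fresh-frozen sections the values were 558, 444, 432 and 383 CPM in CA1, 818, 710, 759 and 987 CPM in CA3, and 474, 371, 379 and 442 CPM in DG. CA3 stood above both other regions in these conditions, which overlapped with each other. Fixed frozen sections gave 579, 426, 469 and 683 CPM in CA1, 1263, 974, 1237 and 1326 CPM in CA3, and 485, 309, 351 and 376 CPM in DG. Paraffin sections gave 192, 252, 396 and 278 CPM in CA1, 637, 766, 690 and 927 CPM in CA3, and 305, 365, 251 and 451 CPM in DG. In 4 of 4 conditions all CA3 replicates were thus above all replicates of CA1 and DG, as held for 17 of 18884 genes (0.09%). The log2 fold change of CA3 over DG was 1.04 (SE 0.16), 1.03 (SE 0.16), 1.67 (SE 0.17) and 1.19 (SE 0.26) in the order of conditions above, with adjusted p of 6.48e-05, 3.19e-05, 1.17e-19 and 0.00154. That of CA1 over CA3 was -1.27, -0.86, -1.23 and -1.36, with adjusted p of 9.47e-07, 0.000709, 5.7e-09 and 0.00167. All 8 calls stood under every alternative and without any single replicate, and no difference between CA1 and DG was called in any condition.

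Stmn3 (chr2:181306459-181314500, minus strand), a related neuronal stathmin, was higher in CA3 than in DG in 4 of 4 conditions. The log2 fold change was 0.81 in HCl fresh-frozen (SE 0.20), 0.55 in TE fresh-frozen (SE 0.17), 1.18 in fixed frozen (SE 0.21) and 2.11 in paraffin sections (SE 0.39), with adjusted p of 0.00955, 0.0424, 9.71e-07 and 0.000112. The paraffin values behind the last were 132, 191, 418 and 175 CPM in CA3 and 47.5, 44.5, 44.8 and 77.8 CPM in DG, without overlap. Fixed frozen sections had 377, 494, 470 and 606 CPM in CA3 against 157, 195, 214 and 294 CPM in DG and 101, 304, 307 and 203 CPM in CA1. CA3 was here above both other regions, and the log2 fold change of CA1 over CA3 was -0.97 (SE 0.22, adjusted p 0.00065). In TE fresh-frozen sections Stmn3 was higher in CA1 than in DG (log2 0.65, SE 0.17, adjusted p 0.00818). The TE fresh-frozen calls were lost without CA1 replicate 1 or DG replicate 4 for CA1 over DG (0.0522 at most), and without any but CA3 replicate 1 and DG replicate 3 for CA3 over DG (0.0671 to 0.160), and the HCl fresh-frozen call without CA3 replicate 2 (0.0547). The TE fresh-frozen call of CA3 over DG was also lost with DESeq2 (0.0540), with its size factors (0.0542) and after thinning to equal totals (0.195). Stmn1 (chr4:134468320-134473843, plus strand), the widely expressed stathmin known from dividing and young cells, was called between regions in no condition, at group means of 5.15 to 40.0 CPM.

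The sum of the 3 stathmins averaged 760, 1099, 1727 and 991 CPM in CA3 in the 4 conditions, 399, 760, 806 and 432 CPM in CA1, and 390, 609, 629 and 409 CPM in DG. The sum of 6 markers of immature neurons ran the other way, with medians of 219 to 360 CPM in DG and 88.8 to 181 CPM in CA1 and CA3. All 6 of these markers were detected in every region of TE fresh-frozen sections, and Draxin, Eomes or Igfbpl1 was at 0 in some libraries of the other conditions. The part of young neurons or of oligodendrocytes in the regional differences was not tested. When every replicate was thinned at random to 35932 UMIs, the calls of members over the 4 conditions went from 15 to 7 for CA3 and DG, from 13 to 6 for CA1 and CA3, and from 9 to 3 for CA1 and DG. The calls left were the 8 of Stmn2, the paraffin calls of Tuba1b and Tubb2a against both other regions, Stmn3 of CA3 over DG in fixed frozen and paraffin sections, and Tuba1a of CA3 over DG in fixed frozen and of CA1 over DG in HCl fresh-frozen sections.

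**Figure D2:**
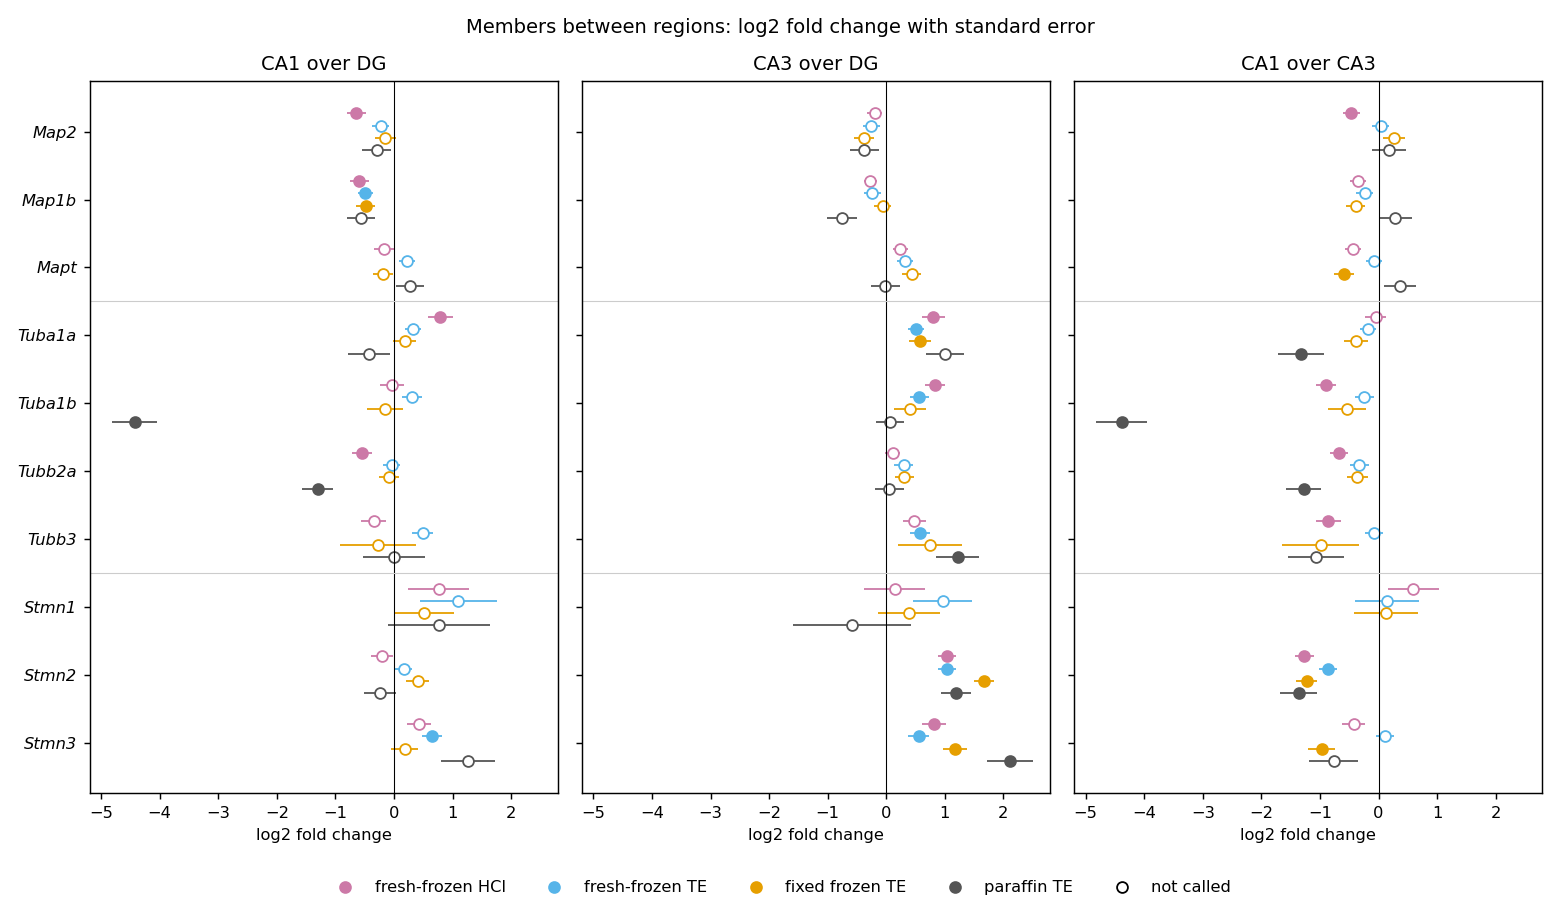
Log2 fold change between regions (x axis) for each of the 10 genes (rows) in the 4 histological conditions (colours), with lines of 1 SE. Filled points were called at an adjusted p under 0.05 and open points were not, and Stmn1 was not tested for CA1 over CA3 in paraffin sections. Stmn2 was filled in all 4 conditions for CA3 over DG and for CA1 over CA3, and Tuba1b in paraffin sections lay near -4.4 in both comparisons with CA1.

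Histological conditions were then compared with region as a covariate, to ask how permeabilization, fixation and embedding changed the measured levels. Each condition was represented by 3 libraries with 12 replicates in all. Permeabilization with HCl gave lower levels than TE in fresh-frozen sections for 9 of 10 members, beside 30.6% of all genes called and 14.3% called lower. The members' median log2 fold change of HCl over TE was -0.71, and that of all genes was 0.10. The largest were those of Stmn3 with -0.98 (SE 0.11), Tubb3 with -0.89 (SE 0.12), Tuba1b with -0.81 (SE 0.11), Stmn2 with -0.79 (SE 0.10) and Map2 with -0.78 (SE 0.09). Their adjusted p were 1.42e-09, 7.01e-08, 4.14e-08, 2.38e-08 and 3.24e-09. Mapt fell by 0.65, Tubb2a by 0.47 and Map1b by 0.35. Tuba1a fell by 0.30 on the log2 scale (adjusted p 0.0341), and its mean was 752 ± 232 CPM with HCl and 708 ± 49.7 CPM with TE in CA1. That call was lost without any 1 of 9 replicates, namely HCl fresh-frozen CA1 replicate 1 or 2, CA3 replicate 1 or DG replicate 1, 3 or 4, and TE fresh-frozen CA3 replicate 2 or DG replicate 1 or 2 (0.05 to 0.0804). Stmn1 had a log2 fold change of -0.20 that was not called. Markers of glia differed between the same sections. The median sum of 6 oligodendrocyte markers was higher with HCl than with TE in CA1 (10293 against 6811 CPM), CA3 (8616 against 6768) and DG (3585 against 2849). That of 6 astrocyte markers was lower with HCl in CA1 (3252 against 4505 CPM), CA3 (3676 against 4269) and DG (4135 against 5444). The replicates of both conditions overlapped in every region for the former and in CA3 and DG for the latter. The part of glial RNA in the lower member levels was not tested.

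Taken by region, 28 of the 30 ratios of the members' mean levels in HCl to those in TE were below 1. Map2, Mapt, Tuba1b and Stmn2 were lower with HCl in all 3 regions without overlap, as 3.44% of all genes were in one direction or the other. For Map2 the 12 replicates ran from 582 to 1319 CPM with a median of 1018 CPM in HCl fresh-frozen sections and from 1206 to 1997 CPM with a median of 1484 CPM in TE fresh-frozen sections. For Mapt they ran from 581 to 943 CPM with a median of 746 CPM and from 832 to 1181 CPM with a median of 1095 CPM. These 2 ranges overlap across regions although they do not within any region. After thinning to 35932 UMIs, 3 of the 9 calls remained, those of Map2, Mapt and Tubb3. The calls lost were those of Stmn3 (log2 -0.21 after thinning, edgeR adjusted p 0.687), Stmn2 (-0.41, 0.150) and Tuba1b (-0.69, 0.0641). Tubb2a (-0.28, 0.265), Map1b (-0.27, 0.218) and Tuba1a (-0.20, 0.517) were lost too. The estimate of Stmn3, the largest at full depth (-0.98), thus shrank as well.

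Fixed frozen sections differed from TE fresh-frozen sections in 7 of 10 members, 6 lower and 1 higher, beside 48.7% of all genes. The median log2 fold change was -0.49 over the members and -0.39 over all genes tested. Over all genes it was -0.19 with DESeq2 and -0.07 after thinning to equal totals, where 1217 genes were called higher and 1423 lower in place of 2505 and 5228. Tubb3 fell by 2.67 on the log2 scale, the most of the members (SE 0.20, adjusted p 1.69e-21, 6.36-fold). Its 12 replicates lay between 0 and 63.5 CPM with a median of 28.3 CPM in fixed frozen sections and between 109 and 228 CPM with a median of 193 CPM in TE fresh-frozen sections, without overlap. Map2 fell by 1.28 (SE 0.10), Tuba1b fell by 0.92 (SE 0.15), Map1b fell by 0.79 (SE 0.09) and Tuba1a fell by 0.75 (SE 0.13). Here the adjusted p were 2.78e-20, 1.25e-07, 9e-12 and 7.35e-07. Under the alternatives, left-out replicates among them, Map1b ran from -1.24 to -0.71 and Map2 from -1.51 to -1.04. Map1b held up to 2760 UMIs in a TE fresh-frozen replicate and up to 663 in a fixed frozen one. Mapt fell by 0.23 (SE 0.10, adjusted p 0.0479), and the call was lost without fixed frozen CA1 replicate 3 or CA3 replicate 2 (0.0743 and 0.106).

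Stmn1 rose in fixed frozen sections, by 1.98 on the log2 scale (SE 0.32, adjusted p 1.88e-07, 3.93-fold). Its replicates ran from 14.5 to 66.3 CPM with a median of 38.5 CPM, against 1.15 to 29.7 CPM with a median of 7.96 CPM in TE fresh-frozen sections. The lowest fixed frozen replicates thus overlapped with the highest fresh-frozen ones. Tubb2a, Stmn2 and Stmn3 were not called, with log2 fold changes of -0.16, 0.14 and 0.20. Correction for UMI saturation added a call for Tubb2a (log2 -0.32, adjusted p 0.00615). Thinning added calls for Stmn2 (log2 0.59, adjusted p 0.0017) and Stmn3 (log2 0.69, adjusted p 0.00699), and ended those of Mapt and Stmn1 (adjusted p 0.867 and 0.0728). The summed level of 6 astrocyte markers, given for comparison, had medians of 3252 to 5444 CPM in fresh-frozen and 1411 to 2424 CPM in fixed frozen and paraffin sections by region.

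Paraffin sections differed from fixed frozen sections in 8 of 10 members, beside 28.0% of all genes, with Tuba1b, Tubb3 and Mapt higher and Tuba1a, Tubb2a, Stmn1, Stmn2 and Stmn3 lower. The members' median log2 fold change was -0.31, and that of all genes was 0.05. With DESeq2 size factors it was 0.22 over all genes, and their called genes went from 1666 higher and 1753 lower to 2353 higher and 1231 lower. Stmn3 fell by 1.51 (SE 0.19), Tuba1a fell by 1.24 (SE 0.17), Stmn2 fell by 0.68 (SE 0.15) and Tubb2a fell by 0.56 (SE 0.14), with adjusted p of 9.1e-13, 1.82e-10, 7.78e-05 and 0.00101. Thinning ended the Tubb2a call (0.0750). Stmn1 fell by 1.19 (SE 0.42, adjusted p 0.0202), and this call was lost without fixed frozen CA1 replicate 2 (0.0536), with DESeq2 (0.0574), with its size factors (0.0513), with TMM factors from well-counted genes (0.0503) and after thinning (0.419). Tubb3 rose by 1.67 (SE 0.29, adjusted p 2.63e-07) and Mapt by 0.40 (SE 0.14, adjusted p 0.0184). Map2 and Map1b differed by 0.01 and -0.07 on the log2 scale and were not called.

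For Tuba1b the single value of 1.91 (log2 of paraffin over fixed frozen, SE 0.19, adjusted p 1.11e-19) covered unlike ratios in the regions. The ratio of mean levels was 5.65 in CA3 and 7.45 in DG but 0.33 in CA1. Replicates of the 2 conditions did not overlap in any region. In CA1 the gap was narrow, with 70.6 CPM in the highest paraffin and 72.4 CPM in the lowest fixed frozen replicate. These CA1 levels rest on 8 and 48 UMIs in sum, and the paraffin replicate at 0 allows up to 83.5 CPM. The conditions were not tested within CA1 alone. Tubb2a measured 356 ± 138 CPM in paraffin CA1 against 861 ± 98.3 CPM in fixed frozen CA1, without overlap of replicates, while the means in CA3 were 909 ± 214 and 1061 ± 72.5 CPM and those in DG 874 ± 157 and 867 ± 67.4 CPM.

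**Figure D3:**
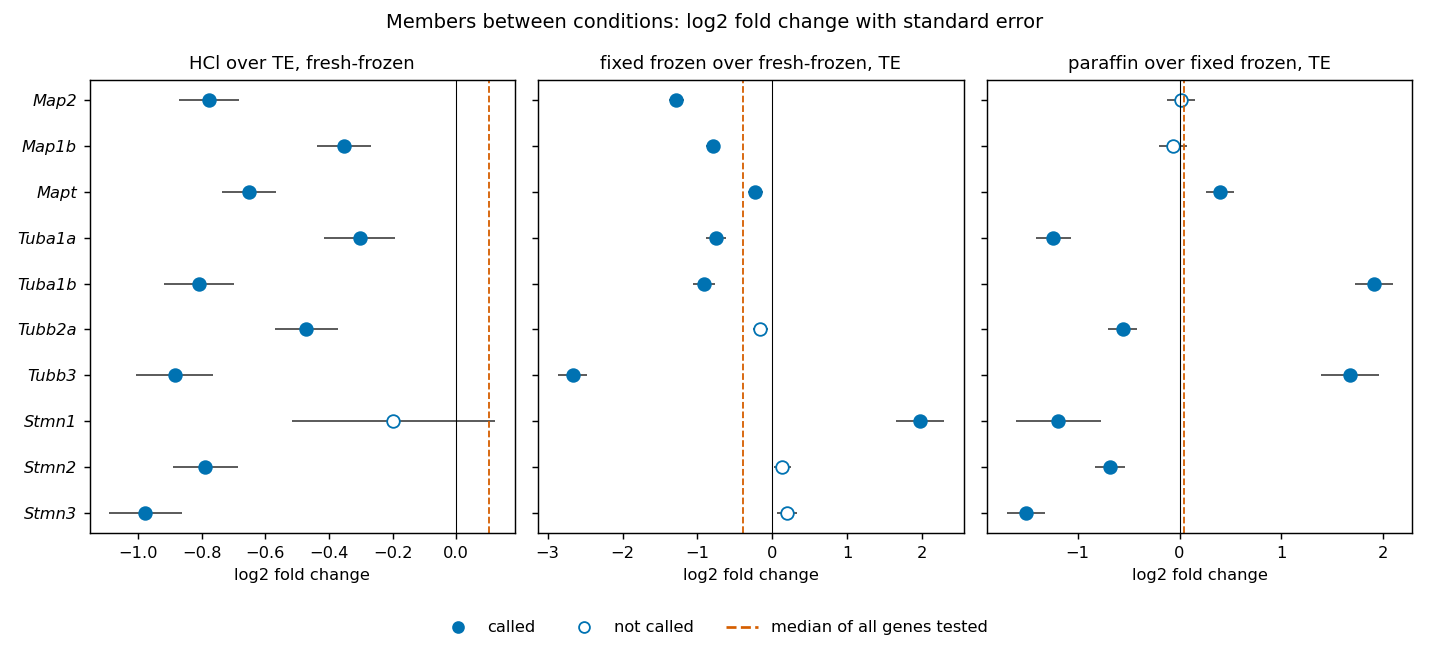
Log2 fold change between histological conditions (x axis), with region as a covariate, for each of the 10 genes (rows), with lines of 1 SE. Filled points were called at an adjusted p under 0.05, and the dashed line is the median of all genes tested. With HCl over TE, 9 genes were filled and lower, and with paraffin over fixed frozen sections Tuba1b lay at 1.91 and Stmn3 at -1.51.

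Whether the regional differences themselves depended on the condition was tested with an interaction term against TE fresh-frozen sections, in 9 combinations of a region pair and a condition. All genes were called at rates of 1.41, 0.35 and 0.947% for CA1 over DG (HCl fresh-frozen, fixed frozen and paraffin sections), 0.102, 0.341 and 0.405% for CA3 over DG, and 0.516, 0.335 and 0.433% for CA1 over CA3. The members called belonged to 2 combinations, both with paraffin sections. For CA1 over DG, 2 of 10 members were called beside 0.947% of all genes, namely Tuba1b with a change in log2 fold change of -4.87 (SE 0.43, adjusted p 2.33e-26) and Tubb2a with -1.37 (SE 0.30, adjusted p 0.00271). For CA1 over CA3, Tuba1b alone was called beside 0.433% of all genes, with -4.27 (SE 0.47, adjusted p 1.46e-15). The Tubb2a call was lost without replicate 2 of every group (adjusted p 0.0781), with DESeq2 size factors (-1.05, adjusted p 0.0778) and after thinning (0.411), while both Tuba1b calls stood under every alternative. Stmn3 had a change of -1.09 for CA1 over CA3 in fixed frozen sections (adjusted p 0.0564), which was called with DESeq2 (adjusted p 0.00695) and with its size factors (0.0409). For CA3 over DG in paraffin sections the change of Stmn3 was 1.45 (adjusted p 0.100), called with DESeq2 (0.0294) and with its size factors (0.0315). The difference of Stmn2 between CA3 and DG in fixed frozen sections exceeded that in TE fresh-frozen sections by 0.61 (SE 0.23, adjusted p 0.307), which was not called in edgeR but was with DESeq2 (0.80, adjusted p 0.0443). DESeq2 also called Mapt for CA1 over CA3 in fixed frozen sections (-0.52, adjusted p 0.0323), where edgeR gave -0.53 (adjusted p 0.493).

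Levels of the members were also set against all other genes over the 12 means of region and condition, as a description over groups that share libraries and differ in depth. Mean log2(CPM + 10) values were averaged over the members of each family, and the genes with the most similar pattern by Pearson's r, among genes with a mean of at least 20 CPM, were Cpeb3 (0.939), Entpd7 (0.927) and Thoc2 (0.921) for the MAPs. They were Pip4k2b (0.914), Gnas (0.911) and Susd6 (0.905) for the tubulins, and Pgm2l1 (0.946), Kifap3 (0.908) and Eif1a (0.907) for the stathmins. These genes were the highest of about 7420 searched. Each member's own r with the average of the rest of its family lay between -0.19 for Mapt and 0.73 for Stmn3.

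Other genes of the microtubule system were taken from 9 lists. In TE fresh-frozen sections 24 of 119 such genes tested were higher in CA1 than in DG and 2 lower, or 21.8% called beside 10.1% of all genes. In CA3 over DG 19 of 118 were higher and 2 lower (17.8%, beside 7.91%). Between CA1 and CA3, 3 of 119 were higher and 1 lower (3.36%, beside 4.4%). The balance differed in other conditions. For CA1 over CA3 there were 3 higher and 12 lower in HCl fresh-frozen (12.6%, beside 9.13%), 2 higher and 7 lower in fixed frozen (8.74%, beside 7.2%) and 2 of each in paraffin sections (4.08%, beside 2.36%). CA1 over DG gave 17 higher and 6 lower, 8 and 4, and 3 and 1 in these conditions (19.5, 11.2 and 4%, beside 17.0, 8.14 and 3.29%), and CA3 over DG gave 17 and 2, 14 and 4, and 4 and 1 (16.2, 16.7 and 4.85%, beside 8.99, 9.27 and 3.21%). Among the other tubulins, Tubb4a was higher in CA1 than in DG in 4 of 4 conditions with a mean log2 fold change of 1.19, beside the oligodendrocyte marker sums that were also higher there. Tubb4a is known to be abundant in oligodendrocytes, and the part of oligodendrocyte RNA in its difference was not tested. Tubb2b, close in sequence to Tubb2a, was lower in CA1 than in DG in 3 conditions (mean -1.39), and Tubb5 was lower in CA1 than in CA3 in 3 (mean -1.02). Of the other MAPs, Map4 was higher in CA1 than in DG in 3 conditions (mean 0.78), and Dclk1, a doublecortin-like kinase, was lower in CA3 than in DG in 4 of 4 (mean -0.78). Stmn4, the remaining stathmin, was higher in CA1 than in DG in both fresh-frozen conditions (mean 0.89 over the 4 conditions) and, unlike Stmn2, was not called between CA3 and CA1. Ttl, the ligase that restores tyrosine to α-tubulin, was higher in CA3 than in DG in 3 conditions (mean 1.02).

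Between conditions, 19 of 125 of these other genes were higher and 42 lower with HCl than with TE (48.8% called, beside 30.6% of all genes), 34 of 120 were higher and 36 lower in fixed frozen than in TE fresh-frozen sections (58.3%, beside 48.7%), and 13 of 112 were higher and 35 lower in paraffin than in fixed frozen sections (42.9%, beside 28.0%). Over all genes, 2945 were called higher and 2605 lower, 2505 and 5228, and 1666 and 1753 in the same 3 comparisons. With HCl the α-tubulin gene Tuba4a fell by 1.01, Map7d2 by 1.21 and the prefoldin subunit gene Pfdn2 by 1.41 on the log2 scale. In paraffin sections Tuba4a fell by 3.43 from its level in fixed frozen sections. Stmn4 fell by 0.38 with HCl, as did Stmn2 and Stmn3, and rose by 0.95 in fixed frozen sections, as did Stmn1.

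**Figure D4:**
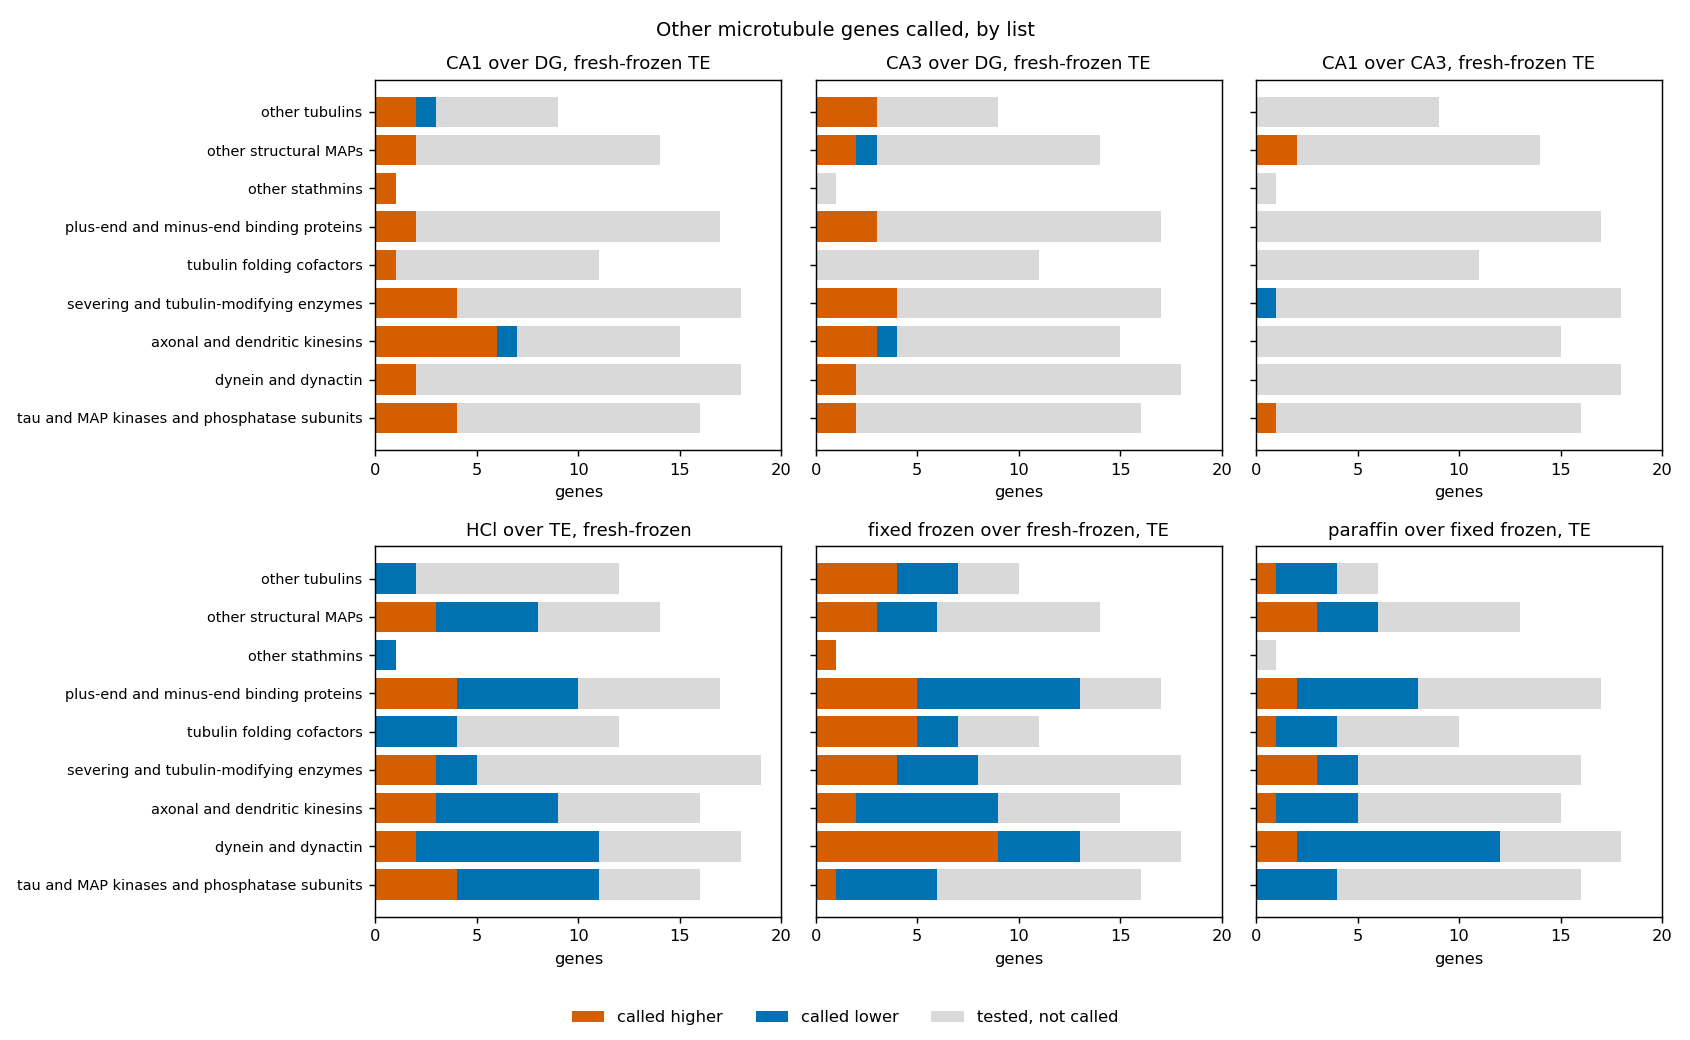
Number of called genes (x axis) in each of the 9 lists of other microtubule genes (rows), split into higher and lower, for 3 comparisons between conditions and the region comparisons in TE fresh-frozen sections. Lower calls outnumbered higher ones with HCl over TE (42 against 19) and with paraffin over fixed frozen sections (35 against 13). All genes tested gave 2605 lower against 2945 higher calls and 1753 against 1666 in these comparisons.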

How the data were processed

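The authors demultiplexed barcodes and UMIs of 6 bases, aligned the reads to GRCm38, assigned them to genes and deposited counts of different UMIs per gene, without normalization, for 48 replicates in 12 libraries. The submitters' processing notes name UMI-tools 1.0.0, HISAT2 2.1.0, featureCounts 1.6.4 and DESeq2 1.20.0, and the annotation release is not given in the sources used here. A separate table of barcodes was not used. All 48 columns were used, with replicate totals of 35932 to 1111804 UMIs, and the number of UMIs limits the precision of low levels.

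Counts were tested with edgeR 4.0.16 (quasi-likelihood test, TMM) in R 4.3.3 on genes that reached 10 UMIs in sum in the replicates of a fit. Regions were compared on the 8 replicates of both, conditions on 24 replicates with a covariate for region, and region effects between conditions with an interaction term. Adjusted p-values follow Benjamini and Hochberg over all genes of a fit, and log2 fold changes are the first group over the second with the SE of the model. Tests were checked on simulated counts of independent replicates, which do not cover replicates that share a library or deviate together. P-values measure the spread between replicates that share a library. Alternatives were DESeq2 1.42.0, its size factors in edgeR, no filter, the replicate number as a block, thinning to 35932 UMIs in 1 random draw, correction for UMI saturation, leaving out each replicate and, chosen after seeing the data, TMM from well-counted genes. Same-numbered replicates were taken to deviate together if every correlation of deviations from the library mean was over 0.1. That held between CA3 and DG in HCl fresh-frozen sections (0.228 to 0.433). It also held between all region pairs in TE fresh-frozen sections (0.180 to 0.338). Between HCl and TE fresh-frozen sections it held in CA3 (0.26 to 0.37) and DG (0.17 to 0.34) but not in CA1 (0.03 to 0.18). For all these pairs blocked values are given if they changed a call. With the block the members called for HCl over TE stayed at 9. The part of replicate depth in these correlations was not tested. The members, the gene lists and the rule for named genes (all members, and in each list the genes called in most conditions or with the largest called change between conditions, and the genes most like each family) were chosen with earlier results of these data known. Positions and transcripts came from GENCODE M21. Summaries and figures were made in Python 3.11.15 (pandas 2.3.3, numpy 2.4.6, matplotlib 3.10.9).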

Additional observations from a re-analysis of the deposited data

Results flagged for a closer look

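In 8 of 120 groups of 4 replicates, 1 replicate stood apart from the other 3 by more than Dixon's critical value at 95%, a share that chance gives in about 1 of 20 groups. Mapt measured 1908 CPM in paraffin CA1 replicate 2, above the rest, and Tuba1a 198 CPM in paraffin CA1 replicate 3. Tuba1b was high at 242 CPM in TE fresh-frozen DG replicate 2 and at 166 CPM in fixed frozen CA1 replicate 2. Tubb2a was high at 1092 CPM in TE fresh-frozen CA1 replicate 1 and low at 713 CPM in fixed frozen CA1 replicate 2. Stmn3 was low at 223 CPM in TE fresh-frozen CA3 replicate 1 and high at 77.8 CPM in paraffin DG replicate 4.

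The regional difference itself differed between paraffin and TE fresh-frozen sections by an interaction term in 3 cases. These were Tuba1b for CA1 over DG (-4.87 on the log2 scale, SE 0.43), Tuba1b for CA1 over CA3 (-4.27, SE 0.47) and Tubb2a for CA1 over DG (-1.37, SE 0.30).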

How the results depend on the processing

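Over the 4 conditions, 9 calls of members were made for CA1 over DG, 15 for CA3 over DG and 13 for CA1 over CA3, and over the 3 comparisons of conditions 9, 7 and 8 (HCl over TE, fixed over fresh-frozen, paraffin over fixed frozen). Thinning to the smallest total gave 3, 7 and 6 calls between regions and 3 for HCl over TE, from 1 random draw, and took the calls of the other microtubule genes from 339 to 112. The 3 interaction calls became 7 with DESeq2 and 11 with the replicate number as a block. With the block there were 12, 22 and 16 calls between regions, 9, 7 and 8 between conditions and 434 of other microtubule genes. These blocked counts also cover conditions in which replicates of the same number did not deviate together by the rule used. In paraffin sections, 3 of 4 correlations passed 0.1 in each region pair. Blocking there added calls of Map1b for CA1 over DG (adjusted p 0.00228) and CA3 over DG (0.00203), and of Tuba1a for CA3 over DG (0.0221). It also added the interaction call of Stmn2 for CA3 over DG in fixed frozen sections (0.0485). Without single replicates the counts ranged from 7 to 10, 11 to 16 and 11 to 14 between regions, from 8 to 9, 6 to 8 and 7 to 8 between conditions, and from 2 to 4 for the interaction.

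No call of a member changed direction under any alternative run. Calls that stood in all alternatives, with each single replicate left out among them, were 15 of 37 between regions, 14 of 24 between conditions and 2 of 3 interactions. The call of Map1b for CA1 over DG in fixed frozen sections was lost with DESeq2 (adjusted p 0.105), with its size factors (0.107), with other TMM factors (0.0561), without a filter (0.0558) and after thinning (0.354). Tuba1a for HCl over TE was lost with DESeq2 (0.114), its size factors (0.0904), other TMM factors (0.157), UMI correction (0.0501) and thinning (0.517). The cause of these losses was not tested. Depth limits the fixed frozen and paraffin values most, where Tubb3 and Stmn1 rest on few UMIs.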

Other observations

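Motor genes and kinases that act on MAPs were also measured. Among 16 kinesin genes, Kif5a, a heavy chain of the conventional neuronal kinesin, was higher in CA1 than in DG in 3 conditions (mean log2 fold change 0.79 over 4 conditions) and higher in CA3 than in DG in 3 (mean 0.59). Kif26b was lower in CA1 than in DG in 3 conditions (mean -2.18) and lower in CA3 than in DG in 3 (mean -1.89). Kif1b was higher in CA3 than in DG in 3 conditions (mean 0.43). Mapk10, the neuronal JNK gene, was higher in CA3 than in DG in 3 conditions (mean 0.60), and Ppp2r2b, a regulatory subunit of phosphatase 2A, was higher in CA1 than in DG in 3 (mean 0.88).

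Kif5b, the ubiquitous conventional kinesin heavy chain, fell by 1.06 on the log2 scale with HCl relative to TE (SE 0.10, adjusted p 4.55e-12) and by 1.49 in fixed frozen relative to TE fresh-frozen sections (SE 0.11, adjusted p 2.22e-21). Kif5a rose by 1.15 in paraffin relative to fixed frozen sections (SE 0.14, adjusted p 1.06e-13). Of 18 dynein and dynactin genes tested, 2 were higher and 9 lower with HCl than with TE, 9 were higher and 4 lower in fixed frozen than in TE fresh-frozen sections, and 2 were higher and 10 lower in paraffin than in fixed frozen sections, beside 30.6, 48.7 and 28.0% of all genes called in either direction. Dynlt3, a dynein light chain gene, fell by 1.40 with HCl (SE 0.12, adjusted p 4.85e-13) and by 1.17 in paraffin relative to fixed frozen sections (SE 0.22, adjusted p 3.4e-06), and the light chain gene Dynlrb1 rose by 1.84 in fixed frozen sections (SE 0.13, adjusted p 2.09e-23).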
